A study of Mus musculus with 20 samples.

Results

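The features described here are array probes named only by a stretch of the mouse genome, such as chr5:35975265-35982561_F, with no gene symbol or RefSeq accession. The array held 16194 such probes among 55681, under 4610 coordinate names. Described are the 7799 that were well above background in their own colour channel in at least 4 of 20 samples, and these fall under 3391 names. Members were chosen by these detection marks alone, so how often members were detected is a description. Changes between groups were not part of the rule, but a probe could pass it through the groups where it was bright. Thus 206 members were detected in actinonin samples alone, and their changes are not independent of the choice. Coordinates are those of the mouse build mm9, per the file headers. The suffix F or R is taken as the strand of the interval, which the files do not spell out. Gene positions in that build were not used here, so whether each interval is intergenic, or lies within an exon, intron or UTR of a gene, was not analysed, and "intergenic noncoding" is a working name. Probe sequences were not used here either.

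Intergenic regions of mammalian genomes give rise to long noncoding RNAs, many of them spliced and polyadenylated like messenger RNAs but without a long open reading frame. They are usually less abundant than messenger RNAs, and many are restricted to certain cell types. Some act on the chromatin of neighbouring genes, some act as scaffolds for protein complexes, and most have no known function. Transcription from the opposite strand of the same stretch yields antisense RNA, which a strand-specific probe reads separately.

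The samples were mouse embryonic fibroblasts (MEFs) of a Balb/c background, cultured with 10% serum and uridine and collected at 90% confluence. Carrier cells received ethanol at 3 µl/ml and carry the label 0 h, and treated cells received 150 µM actinonin for 6, 24, 48 or 72 h. Actinonin blocks peptide deformylase, which in mitochondria cuts formyl groups off the first residue of nascent proteins. Each of the 5 groups held 4 samples, labelled independent, each pooled from 4 plates. How long carrier cells were kept is not given in the sources used here, so actinonin and time in culture cannot be told apart in comparisons with carrier. RNA was primed with oligo-dT, so RNAs without a poly(A) tail are under-represented, and in bulk RNA a change in the mix of cells cannot be told apart from a change in RNA per cell.

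The 20 samples were hybridised in pairs on 10 two-colour arrays of 2 slides. Slide 1 held 2 arrays, with 2 carrier and 2 samples of 6 h, and slide 2 held the rest. Between 50.8% and 58.7% of spots were well above background, except on 1 array, which carried carrier sample 2_Cy3 and 48 h sample 2_Cy5, where 66.4% and 70.5% were. All 10 fibroblast markers measured were detected in all 20 samples, among them Col1a1, Thy1 and Vim. Markers of other cell types were detected in part. All 20 samples detected 3 of 5 leukocyte markers (Itgam, Cd14 and Csf1r), 2 of 4 endothelial (Kdr and Pecam1), 2 of 5 epithelial (Krt5 and Krt14), 2 of 4 neural (Map2 and Tubb3), 1 of 4 pluripotent (Nanog) and 0 of 4 muscle markers. Ptprc, Cdh5, Krt8, Myog, Sox2 and Zfp42 were detected in 0 samples. The part of other cell types in the changes below was not tested. The number of arrays limits the precision of every value.

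The commonest outcomes of detection were all samples and none. Of the 16194 coordinate-named probes, 4653 were well above background in all 20 samples and 4785 in 0. Thus 48.2% met the minimum of 4 samples, against 70.4% of probes for protein-coding RefSeq transcripts (accessions starting NM) and 56.9% of those for noncoding RefSeq transcripts (NR). At the limit, 309 members were detected in exactly 4 samples, with a median log2 intensity of 6.57, and 394 probes in exactly 3, with a median of 6.53. Of those 309, 205 had both samples of the array with most spots above background among their 4. In all, 387 members would have had under 4 detections without that array. No member was detected in carrier samples alone, and 206 were detected in actinonin samples alone, where 16 samples rather than 4 could show one. All 4 samples detected 5047 members in carrier, 5089 at 6 h, 5970 at 24 h, 5932 at 48 h and 5861 at 72 h. Slide 1, with 2 carrier and 2 samples of 6 h, detected 67.7% to 82.1% of members per sample and slide 2 79.5% to 95.6%, so the lower counts of carrier and 6 h go with the slide. On slide 2 alone, carrier samples detected 82.2% and 93.1% and 6 h samples 86.1% and 89.6%.

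**Figure D1:**
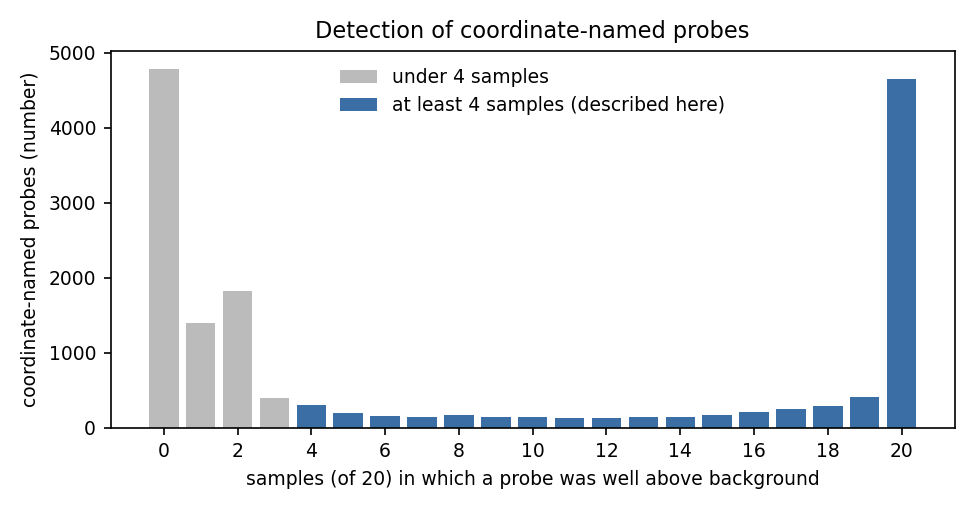
Number of coordinate-named probes (vertical axis) by the number of samples, of 20, in which each was well above background (horizontal axis). Grey bars are probes below the minimum of 4 samples and blue bars the 7799 described, with peaks of 4785 probes at 0 samples and 4653 at 20.

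The minimum of 4 samples was met by 45.7% of 8171 probes with suffix F and 50.7% of 8010 with suffix R. It was met by 47.8%, 49.3% and 47.4% of probes in short, middle and long intervals, divided at 5076 and 18637 bases. Intervals were 62 to 7128487 bases long, with a median of 10676. Each name held up to 10 probes, and 2012 names held 2 or more members. Many intervals overlap, so that the 3391 names with a member merge into 2552 stretches of the same strand.

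Changes were tested with limma on the log2 intensities of the 20 samples. The model held group, dye and slide terms, with the array as a random block. P-values were adjusted by Benjamini-Hochberg over the 28871 features tested, and a feature was called at an adjusted p under 0.05. At 6 h, 774 of 7799 members (9.92%) were called against carrier, beside 21.6% of all features tested. At 24 h 1717 members (22%) were called, beside 36.2% of all features. The 48 h comparison called 1679 members (21.5%), beside 38.2%. The 72 h comparison called 2342 (30%), beside 44.3%. The share was below the background at all 4 times. At 24 h the count fell to 974 without the slide term and to 963 with loess within arrays only, and at 72 h to 1537 with loess only. At 6 h slide 2 alone gave 544 called members and slide 1 alone, with 2 samples a group, gave 7. The 6 h change passed the test of a difference between slides in 0 of 7799 members by limma, beside 1 of 28871 features. At an unadjusted p under 0.05 there were 332 of 7799 members, beside 1314 of 28871 features. At 72 h slide 2 alone gave 2305.

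Calls went in both directions. At 6 h 368 members rose (4.72%) and 406 fell (5.21%), beside 11.9% and 9.71% of all features. At 24 h 785 rose (10.1%) and 932 fell (12%), beside 19.3% and 17%. Without the slide term the order turned, with 510 higher and 464 lower, as it did with the slide as a random block (700 and 663). At 48 h 871 rose (11.2%) and 808 fell (10.4%), beside 19.9% and 18.3%. At 72 h 1224 rose (15.7%) and 1118 fell (14.3%), beside 23.8% and 20.5%. Which direction had more calls rested on single samples at 6 h, with 481 higher and 391 lower without carrier sample 1_Cy5, and at 48 h, with 688 higher and 766 lower without 48 h sample 1_Cy3. The 6 h order also turned without the slide term (327 higher and 314 lower), with the slide as a random block (286 and 259) and without the dye term (260 and 237). It turned too with loess within arrays only (348 and 345) and with carrier and 6 h samples alone (163 and 137). With a replicate block (number and dye) the 48 h order turned, at 845 higher and 888 lower. Without the slide term 72 h gave 980 higher and 669 lower. The median log2 change over all 7799 members lay between -0.0138 and -0.00526 at the 4 times, and over all features between -0.000751 and 0.00795. Most called changes were small: the median absolute log2 change of called members was 0.265 at 6 h and 0.342 at 72 h.

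**Figure D2:**
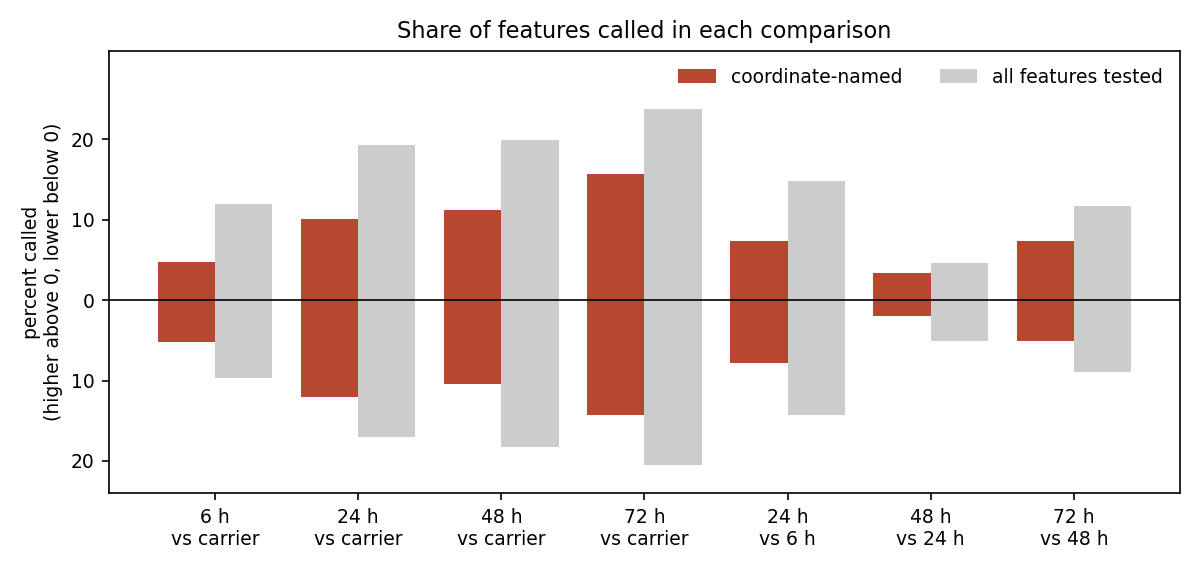
Percent of coordinate-named members (red) and of all 28871 features tested (grey) called higher (above 0) or lower (below 0) in 7 comparisons by limma at an adjusted p under 0.05. At 72 h against carrier, 15.7% of members were higher and 14.3% lower, against 23.8% and 20.5% of all features.

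Dim probes were called less often, so members were also set beside other features in 3 ranges of mean signal, divided at log2 intensities of 6.92 and 7.84 so that members fall equally among them. In the low range, 12.8% of members and 16.9% of other features were called at 72 h. The middle range gave 25.9% and 32.2%, and the high range 51.4% and 60%. At 6 h the same ranges gave 1.85%, 6.77% and 21.2% of members, against 3.18%, 9.1% and 34.3% of other features. The high range has no upper bound and other features there had smaller standard errors, with a median of 0.07 against 0.08 for members at 72 h. These shares are descriptions, and the difference between the classes was not tested.

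**Figure D3:**
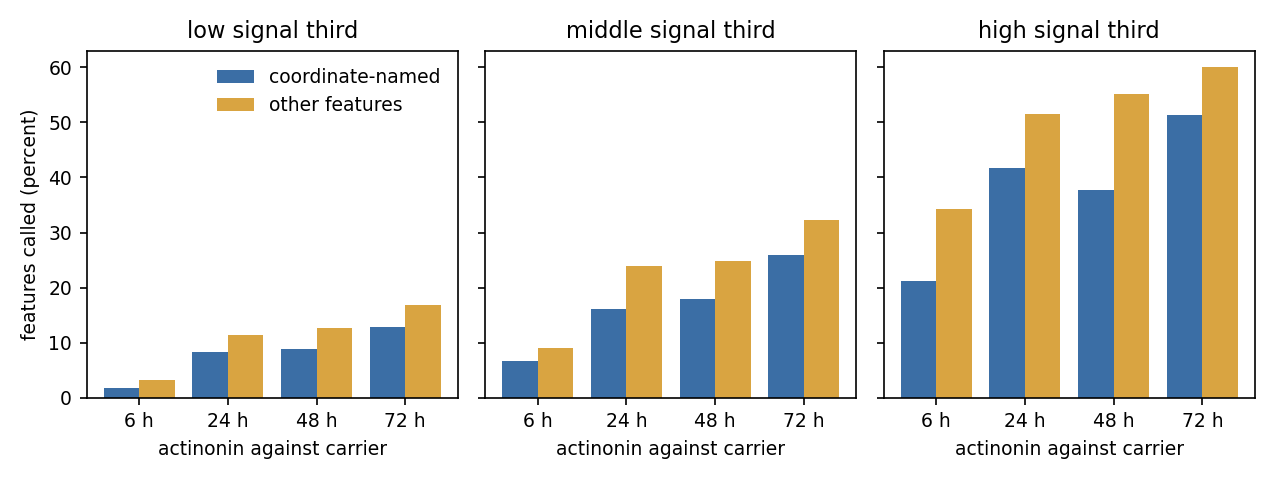
Percent of features called at each time against carrier for coordinate-named members (blue) and other features (yellow), in 3 panels by range of mean signal. The members' share rose from 12.8% in the low range to 51.4% in the high range at 72 h, and lay below that of other features in every range and at each time.

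Changes of at least 2-fold were few. At 6 h 6 members (0.0769%) of 2 names were called and at least 2-fold higher, beside 0.256% of all features. Another 1 (0.0128%) was called and at least 2-fold lower, beside 0.0139%. At 24 h 23 members (0.295%) of 8 names were that much higher and 18 members (0.231%) of 10 names lower, beside 0.658% and 0.703%. At 48 h the numbers were 20 members (0.256%) of 9 names and 16 (0.205%) of 8 names, beside 0.655% and 0.769%. By 72 h there were 46 members (0.59%) of 23 names higher and 28 members (0.359%) of 16 names lower, beside 1.4% and 1.26%.

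Called probes of the same interval and strand mostly moved the same way. Such probes are named for the same stretch and are not replicates. Whether they read the same RNA or overlap in sequence was not analysed. At 6 h 162 names held 2 or more called members, and in 161 of them all called members moved the same way. At 72 h this held for 480 of 513 names, and 33 held members called in both directions. Of pairs of called members within a name at 72 h, 95.8% moved the same way, against 50.1% given by the split of directions over all called members. Within names of 2 or more members the log2 change at 72 h had a median SD of 0.106, and the SD over all members was 0.295. Many SDs within a name rest on few probes, so these values are not on an equal footing. Of the 1246 names with 3 or more members, every member was called higher in 121 and every member lower in 65 at 72 h, and no member was called in 457. At 6 h every member was called higher in 24 names and lower in 22.

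Both strands of chr5:35975265-35982561, an interval of 7297 bases with 4 members on each strand, changed at every time. All 4 F members rose at 6, 24, 48 and 72 h against carrier, with median log2 changes of 2, 1.26, 2.4 and 1.66. All 4 R members fell at 6 h, with a median log2 change of -0.73, and then rose at 24, 48 and 72 h, with medians of 1.78, 0.63 and 1.5. Thus F was highest at 6 and 48 h while R was highest at 24 and 72 h, and the steps between consecutive times had opposite signs on the opposite strands.

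The values of single probes show this sample by sample, as log2 intensity with the fitted dye and slide terms removed. For the F probe A_30_P01024606 the carrier samples read 11.62, 11.23, 11.1 and 11.14, and those of 6 h 13.5, 13.27, 13.37 and 13.49. Its 24 h samples read 12.48, 12.54, 12.48 and 12.63, those of 48 h 13.72, 13.77, 13.83 and 13.68, and those of 72 h 12.78, 12.94, 13.09 and 13.05. Every treated sample lay above every carrier sample, and the 24 h samples lay below those of all other treated times. The change against carrier was 4.29-fold at 6 h (log2 2.1 ± 0.09 SE, n = 4 per group; limma adjusted p = 4.6e-11) and 5.5-fold at 48 h (log2 2.46 ± 0.1 SE; adjusted p = 2.65e-12).

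On the R strand, probe A_30_P01032382 read 11.75, 11.73, 11.52 and 11.85 in carrier samples and 10.42, 10.57, 10.69 and 10.53 at 6 h. It then read 13.43, 13.34, 13.39 and 13.51 at 24 h, 12.52, 11.92, 11.99 and 12.27 at 48 h, and 13.15, 13.09, 13.13 and 13.04 at 72 h. The 6 h samples were the lowest and the 24 h samples the highest, with no overlap between any treated group and carrier. Its log2 change was -1.09 ± 0.09 (SE) at 6 h (limma adjusted p = 1.45e-07) and 1.74 ± 0.11 at 24 h (adjusted p = 1.58e-09). From 6 to 24 h it rose by 2.83 ± 0.11 on the log2 scale (adjusted p = 6.34e-12), fell by 1.24 ± 0.1 from 24 to 48 h (adjusted p = 1.67e-06) and rose by 0.93 ± 0.1 from 48 to 72 h (adjusted p = 9.73e-06). Over the same steps the F probe A_30_P01024606 fell by 0.86, rose by 1.21 and fell by 0.78, each called. Times were separate cultures, so the sequence is one of groups and not of the same cells.

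**Figure D4:**
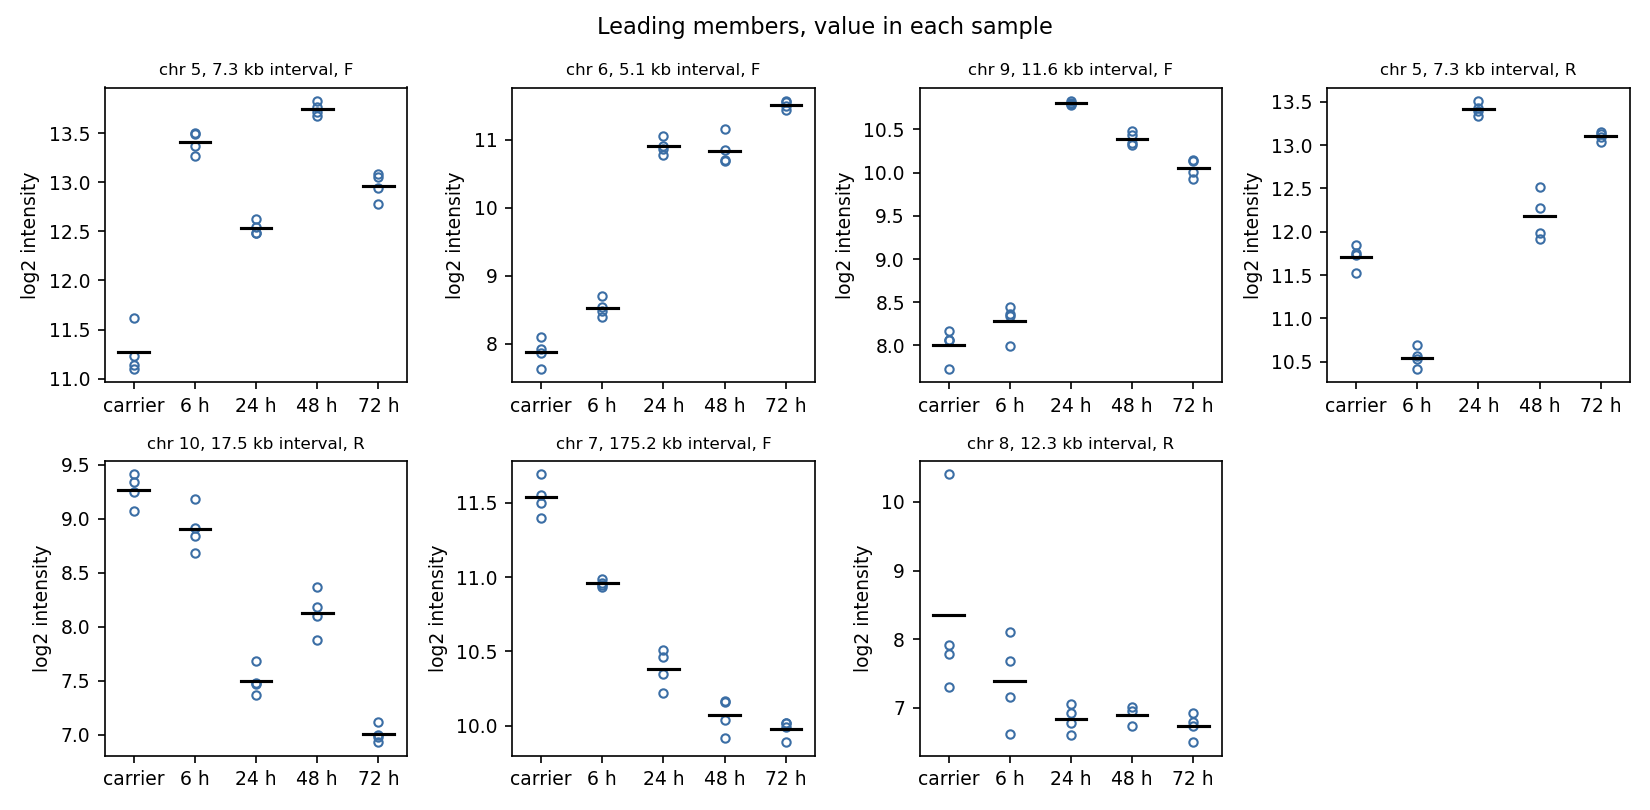
Log2 intensity (dye and slide terms removed) in each of the 4 samples per group (circles) with group means (lines) for 7 members named by the rule on largest rises and falls, each panel titled with chromosome, interval length and strand suffix. The F and R probes of the 7.3 kb interval of chromosome 5 moved oppositely between treated times, and in the chromosome 8 panel 1 carrier sample stood at 10.4.

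The largest rise of any member was that of probe A_30_P01029477 in chr6:126766225-126771309_F, an interval of 5085 bases. Carrier samples read 8.09, 7.86, 7.63 and 7.92, 6 h samples 8.54, 8.7, 8.39 and 8.48, and 24 h samples 10.86, 10.78, 10.91 and 11.05. The 48 h samples read between 10.68 and 11.15 and the 72 h samples 11.44, 11.49, 11.57 and 11.55. All treated samples lay above carrier, and most of the rise fell between 6 and 24 h. The change was 1.55-fold at 6 h, 8.1-fold at 24 h, 7.79-fold at 48 h and 12.4-fold at 72 h (log2 3.63 ± 0.13 SE at 72 h, n = 4 per group; limma adjusted p = 4.31e-13). The step from 24 to 48 h was -0.06 ± 0.11 and not called (adjusted p = 0.818). The only other member of the name, chr6:126766225-126771309_F probe A_30_P01029298, was detected in 5 samples and had log2 changes of -0.17, 0.03, -0.1 and 0.01, none called, so the rise rests on 1 probe. On the R strand 2 of 5 members were called higher at 72 h, the larger at 0.57 ± 0.09 (adjusted p = 3.15e-05).

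A pair of overlapping intervals on chromosome 9 rose from 24 h. In chr9:78107225-78118850_F, probe A_30_P01018914 read 8.17, 8.06, 8.06 and 7.73 in carrier samples and 8.34, 7.99, 8.36 and 8.44 at 6 h, which overlap. At 24 h it read 10.8, 10.83, 10.79 and 10.78, at 48 h 10.32, 10.48, 10.34 and 10.43, and at 72 h 9.93, 10.15, 10.01 and 10.13. The level was thus highest at 24 h and lower at each later time, though still above every carrier sample. Against carrier the change was 0.25 ± 0.09 (log2, SE) at 6 h and not called (limma adjusted p = 0.0532), 2.78 ± 0.11 at 24 h (adjusted p = 3.07e-12) and 2.03 ± 0.11 at 72 h (adjusted p = 5.52e-11). Both steps down were called, with adjusted p-values of 0.0128 and 0.0186. Probe A_30_P01028766 of the same name had 2.53, 2.03 and 1.8 at 24, 48 and 72 h, while its remaining member, detected in 6 samples, was not called at any time. The overlapping chr9:78104935-78116974_F had 1 member, with 2.2, 1.72 and 1.53 at these times.

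On chromosome 3, chr3:127037711-127111912_R rose early and stayed up. Probe A_30_P01031856 read 6.93, 6.74, 6.87 and 6.7 in carrier samples and 7.97, 7.8, 7.76 and 7.95 at 6 h. At 72 h it read 8.05, 8.14, 8.08 and 8.19. No treated sample overlapped carrier at any time. Its log2 changes were 1.02 ± 0.07, 0.92 ± 0.08, 1.18 ± 0.07 and 1.29 ± 0.08 (SE) at 6, 24, 48 and 72 h, all called, the first with a limma adjusted p of 6.08e-09. All 3 members of the name were called higher at all 4 times.

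Several intervals with many probes, singled out after their values were seen, rose as a whole. In chr17:26911397-26917047_F all 10 members were called higher at 24, 48 and 72 h, with log2 changes of 0.86 to 1.46, 0.71 to 1.21 and 0.97 to 1.6. None of these 10 was called at 6 h. In chr3:96074625-96086375_F all 5 members were highest at 48 h, with changes of 0.89 to 1.4, and then fell by 0.38 to 0.55 to 72 h. In chr19:59498190-59531390_R all 5 members rose by 0.27 to 0.65 at 24 h, 0.61 to 0.93 at 48 h and 0.89 to 1.26 at 72 h. In chr12:111287772-111333890_R all 8 members were called higher at 6 h (0.27 to 0.79) and 72 h (0.29 to 0.98), and 7 of 8 at 24 and 48 h. These ranges are over the 6 members detected in carrier, since the other 2 had no carrier sample well above background. Neighbouring intervals chr3:30059174-30060808_R and chr3:30077338-30080281_R rose together, with medians of 0.99 and 1.04 at 72 h over 3 members each.

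**Figure D5:**
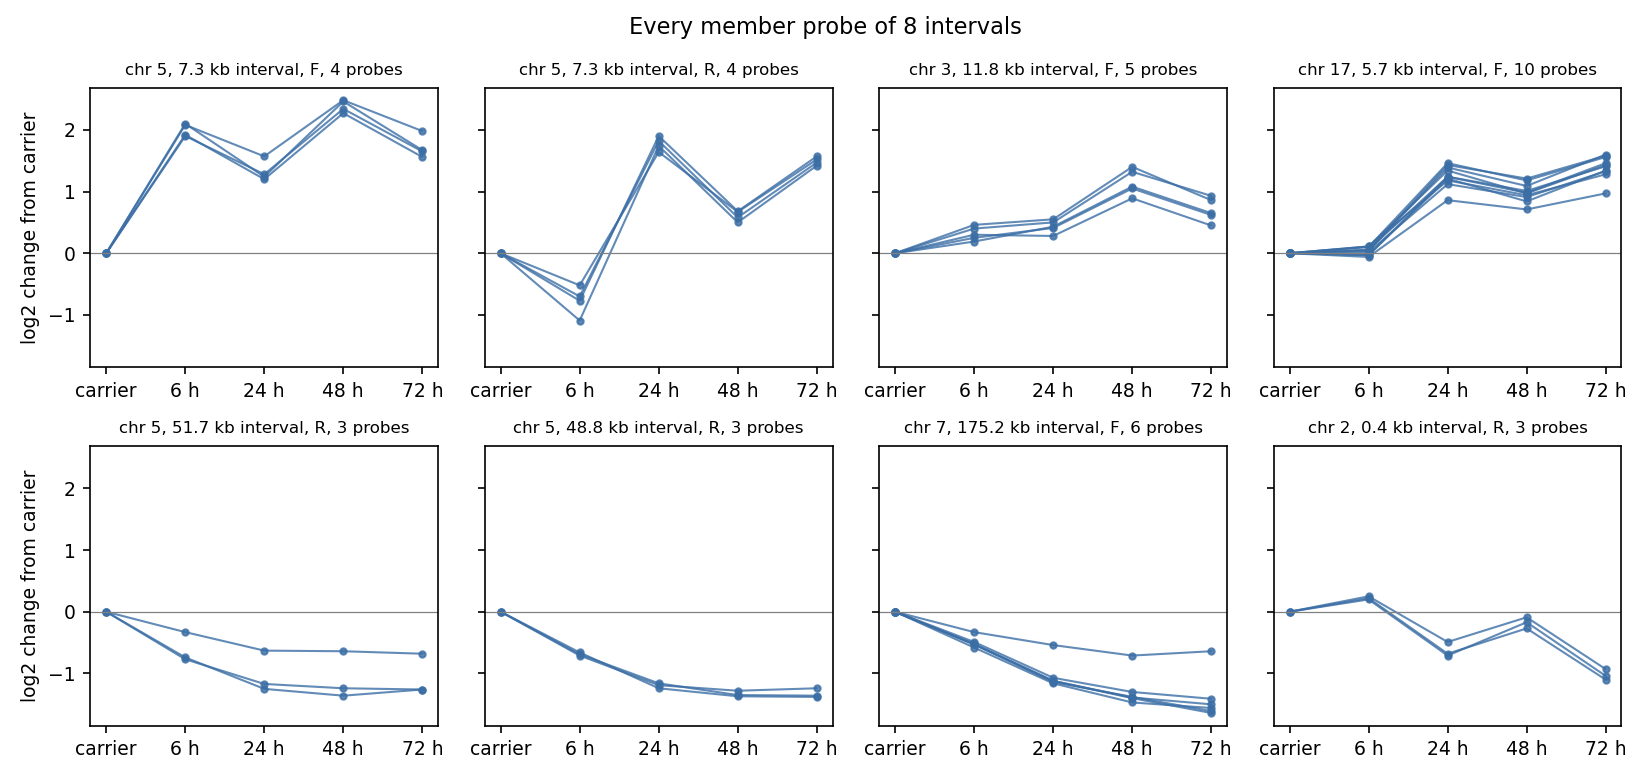
Log2 change from carrier at each time for every member probe (1 line each) of 8 intervals, 4 chosen for rises (top) and 4 for falls (bottom). For each time in turn, the interval not yet chosen with the largest median rise or fall over members was taken. Only intervals whose members were all called in that direction at that time could be chosen. Agreement in direction at that time was thus part of the choice. The 10 probes of the chromosome 17 interval lie between 0.97 and 1.6 at 72 h.

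The largest fall at 72 h was in chr10:120058696-120076196_R. Probe A_30_P01031633 read 8.98, 9.4, 9.59 and 9.22 in carrier samples and 9, 9.18, 8.91 and 9.04 at 6 h. Its 24 h samples read 7.76, 7.54, 7.54 and 7.61, those of 48 h 7.92, 8.1, 7.74 and 8.13, and those of 72 h 6.99, 7.03, 7.15 and 6.95. The 6 h samples overlapped carrier and the later ones did not. The change at 72 h was -2.26 ± 0.12 (log2, SE), 4.79-fold lower (limma adjusted p = 4.6e-11), against -1.67 ± 0.12 at 24 h and -1.32 ± 0.1 at 48 h. The other member, A_30_P01025112, gave -1.76, -1.13 and -2.26 at 24, 48 and 72 h. Both rose from 24 to 48 h, by 0.36 (adjusted p = 0.0407) and 0.63 (adjusted p = 0.00145), between the falls. In the overlapping interval chr10:120069727-120136259_R all 3 members were also called lower at 72 h. The 1 detected in both groups had a log2 change of -1.29, and the other 2 had no 72 h sample well above background.

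A long interval of 175151 bases, chr7:91558475-91733625_F, fell at every time in all 6 members. Its median log2 change was -0.53 at 6 h, -1.12 at 24 h, -1.38 at 48 h and -1.53 at 72 h. Members differed in size, from -1.64 to -0.64 at 72 h. Probe A_30_P01017882 read 10.62, 10.46, 10.5 and 10.61 in carrier samples and 10.01, 10, 10.03 and 10.07 at 6 h. At 24 h it read 9.56, 9.26, 9.41 and 9.5, at 48 h 9.02, 9.3, 9.1 and 9.17, and at 72 h 8.99, 8.91, 8.89 and 8.85. Carrier, 6 h and later samples formed separate ranges. The change at 72 h was -1.64 ± 0.08 (SE; limma adjusted p = 1.7e-11).

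Overlapping intervals on chromosome 5, chr5:22887983-22939658_R and chr5:22890322-22939119_R, fell by 6 h and further by 24 h. All 3 members of each were called lower at all 4 times, with medians of -0.74 and -0.69 at 6 h, -1.17 and -1.19 at 24 h, -1.24 and -1.35 at 48 h and -1.26 and -1.36 at 72 h. Members of the first differed more in size, from -1.26 to -0.68 at 72 h, against -1.38 to -1.24 in the second. The step from 6 to 24 h was called in all 3 of each, and later steps in none. Probe A_30_P01025339 of the second read 10.03, 10.17, 10.02 and 10.3 in carrier samples, 9.28, 9.7, 9.41 and 9.42 at 6 h and 8.77, 8.7, 8.68 and 8.82 at 72 h. The lone member of chr6:134875724-134931975_F read 10.42, 10.52, 10.25 and 10.4 in carrier samples and 8.88, 8.81, 8.84 and 9.02 at 72 h. It fell at all 4 times, by 0.36, 1.32, 0.76 and 1.5 on the log2 scale (limma adjusted p = 9.9e-11 at 72 h), and so was less reduced at 48 h than at 24 h or 72 h. In chr2:128142035-128142481_R, singled out after its values were seen, the 3 members fell by 0.49 to 0.71 at 24 h, rose by 0.41 to 0.54 from 24 to 48 h, and had log2 changes of -1.1 to -0.93 against carrier at 72 h.

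In chrX:50400250-50410825_R the direction turned between early and late times. Of its 6 members, 5 were called lower at 6 h and 5 higher at 72 h. Probe A_30_P01021240 read 8.79, 8.54, 8.89 and 8.84 in carrier samples, 7.87, 7.78, 7.77 and 7.99 at 6 h and 9.79, 9.47, 9.41 and 9.25 at 72 h, 3 ranges that do not overlap. At 24 and 48 h its changes were 0.07 ± 0.13 and -0.08 ± 0.11, neither called. It fell by 0.94 ± 0.1 at 6 h (limma adjusted p = 3.68e-06) and rose by 0.7 ± 0.13 at 72 h (adjusted p = 0.000177). Without the slide term the 72 h change was 0.42 and not called (adjusted p = 0.0884). In all, 83 members (1.06%) were called in opposite directions at 2 times against carrier, beside 2.8% of all features.

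Both strands were detected in 707 of 1067 intervals that had probes on each. At 72 h both strands held called members in 140 of them, in the same direction only in 82, in opposite directions only in 45, and mixed in 13. At 6 h the numbers were 21 intervals, 17 in the same and 4 in opposite directions. The chromosome 5 interval described above is among those 4. No share to set beside these counts was computed, so they are descriptions. In chr17:87483814-87493039, all 5 R members were called lower at 72 h, with log2 changes of -1.29 to -0.8 in those detected in both groups (1 was not), while 1 of 4 F members was called, at -0.2 ± 0.06 (limma adjusted p = 0.00961), and without the slide term its change was 0.09 (adjusted p = 0.712). In chr9:14460976-14488051, all 5 F members were called lower at 72 h, with log2 changes of -1.02 to -0.82 and a median of -1. The lone R member was detected in 3 carrier samples and none of 72 h, so its size of change is not given. It was called lower (limma adjusted p = 0.0382), a call that 10 of the other settings did not give.

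The 5 members with the highest mean signal all changed by less than 2-fold. Whether these intervals lie in known abundant RNAs was not analysed here, so their noncoding, intergenic label is unchecked. They lay in chr19:5801802-5802597_R, chr11:22681800-22707775_R, chr7:108209996-108216032_R, chr17:39982023-39983277_F and chr6:116123643-116124550_F, and signals of different probes were not compared as amounts of RNA. Probe A_30_P01031754 of the first read 16.87, 17.02, 16.99 and 16.94 in carrier samples and 17.74, 17.67, 17.65 and 17.53 at 72 h, with no overlap. All 3 members there were called higher at 24, 48 and 72 h, and this probe changed by 0.7 ± 0.08 at 72 h (limma adjusted p = 8.85e-07). In the chromosome 6 interval all 3 members fell at 72 h, with a median of -0.43. The chromosome 11 probe was called at 48 h, at 0.16 ± 0.06 (adjusted p = 0.0324), and at no other time against carrier.

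Some called members had no sample well above background in 1 of the groups compared, so that only a minimum fold can be given. It was taken from the mean of the brighter group and, per sample of the dimmer one, the higher of its own value and its detection floor. Such members met the minimum of 4 samples without the dimmer group, and the brighter group compared could count towards it. Their calls are thus not independent of the choice of members, and their number is a description. At 6 h they numbered 9 higher (0.115%) and 2 lower (0.0256%), beside 0.107% and 0.0312% of all features. At 72 h they numbered 61 higher (0.782%) and 52 lower (0.667%), beside 0.606% and 0.509%. In chr15:90074814-90087814_R, A_30_P01022723 and A_30_P01018207 were detected in no carrier sample and were at least 1.88-fold and 1.8-fold higher at 72 h. All 5 members of that name were called higher at 24, 48 and 72 h. In chr17:8718223-8949898_F, A_30_P01028855 was detected in all 4 carrier samples and in none at 48 h, where it was at least 1.59-fold lower. The 2 members of this kind called lower at 6 h were at least 1.2-fold and 1.14-fold lower, and the second was detected in only 2 carrier samples. Their calls were lost in 13 and 14 of the other settings. For both, these included leaving out carrier sample 1_Cy3, leaving out the dye term and using slide 2 alone.

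A few members were called on the strength of few samples. Probe A_30_P01029486 in chr8:82836971-82849309_R read 7.79, 10.4, 7.91 and 7.31 in carrier samples and 6.74, 6.5, 6.8 and 6.93 at 72 h, with a change of -1.53 ± 0.54 (SE; limma adjusted p = 0.0278). Carrier sample 2_Cy3, at 10.4, stood far above the others, and without it the change was -0.28 and no longer called. The 48 h sample on the same array was left out as an outlying spot. Likewise A_30_P01029848 in chr1:135830093-135840837_F read 6.94, 6.64, 6.86 and 8.3 in carrier samples, and its calls at 24 and 72 h were lost without carrier sample 2_Cy5.

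Among steps between consecutive treated times, that from 6 to 24 h gave most calls. From 6 to 24 h 577 members rose (7.4%) and 605 fell (7.76%), 15.2% in all, beside 14.8% and 14.3% of all features (29.1% in all). From 24 to 48 h 265 rose (3.4%) and 153 fell (1.96%), 5.36% in all, beside 4.63% and 5.11% (9.74% in all). From 48 to 72 h 575 rose (7.37%) and 398 fell (5.1%), 12.5% in all, beside 11.7% and 8.99% (20.7% in all). The count for 24 to 48 h fell from 418 to 244 without 24 h sample 2_Cy5, to 263 without 24 h sample 1_Cy5 and to 267 without 24 h sample 2_Cy3. From 6 to 24 h 18 members rose (0.231%) and 2 fell (0.0256%) by at least 2-fold, beside 0.294% and 0.336% of all features. From 24 to 48 h 3 rose and 3 fell that much (0.0385% each), beside 0.0173% and 0.0104%. From 48 to 72 h 0 rose and 1 fell (0.0128%), beside 0.104% and 0.0312%. The 6 from 24 to 48 h lie in chr5:35975265-35982561, 3 on each strand. The largest steps from 6 to 24 h were likewise those of its R probes and of the chromosome 9 probe A_30_P01018914, at 2.53 ± 0.11 (limma adjusted p = 1.59e-11).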

How the data were processed

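Total RNA of 20 samples was measured on Agilent two-colour arrays, 1 sample per channel. Per the file headers, Feature Extraction 10.7.3.1 (slide 1) and 11.0.1.1 (slide 2) read the scans, so the software version goes with the slide. As intensity, the authors deposited median spot and local background brightness before normalization, and the deposited well-above-background marks (unit other) chose the members. The authors' deposited series matrix holds log2 intensities and served as an alternative. Its column medians are 6.90 to 6.91. R 2.15 and limma are named in the submitters' processing notes.

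Background was then removed with normexp (offset 50) in limma 3.58.1 under R 4.3.3. Loess within and Aquantile between arrays followed, and outlying spots were left out. Control spots (3671 of 62976) were dropped. Of 28871 features tested, 14242 were RefSeq genes shown by their brightest probe and every other probe stood alone. Array correlation was 0.259. Fits were tested on simulated data. The detection rule for members and the lists were set with earlier results of these data known. Named members are, by rule, the 6 largest rises and falls per time without overlap, up to 2 bounded ones per direction, the 5 brightest, up to 3 that turned direction, 3 per step and 4 strand pairs. Which genes neighbour the intervals was not analysed here.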

Additional observations from a re-analysis of the deposited data

Results flagged for a closer look

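Of 239 groups of 4 values of named members, 9 held a sample whose gap to the nearest other value, relative to the group's range, exceeded Dixon's 95% critical value. Chance does this in about 1 in 20 groups. All values are log2 intensity. Above the other 3 lay 72 h sample 2_Cy5 in chr11:22681800-22707775_R, at 17.25 against 17.2 to 17.21, and 6 h sample 2_Cy5 in chr12:111287772-111333890_R, at 7.08 against 6.85 to 6.86. Below the others lay 72 h sample 2_Cy3 in chr13:98221098-98480773_F, at 5.97 against 6.22 to 6.24, and 48 h sample 2_Cy5 in chr2:117781720-117937595_R, at 6.17 against 6.41 to 6.46. The 48 h sample 2_Cy3 was low in the bright chr17:39982023-39983277_F, at 16.58 against 16.74 to 16.75, and in chr19:5801802-5802597_R, at 17.27 against 17.48 to 17.51. Carrier sample 2_Cy3 was low in chr3:127037711-127111912_R, at 6.51 against 6.88 to 6.9. The 72 h sample 1_Cy3 was low in chr9:14460976-14488051_R, at 6.42 against 6.61 to 6.65, and in chr9:78104935-78116974_F, at 9.53 against 9.8 to 9.85.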

How the results depend on the processing

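With loess within arrays only, called members numbered 963 at 24 h, 1537 at 72 h, 582 from 6 to 24 h, 52 from 24 to 48 h and 280 from 48 to 72 h. Without the slide term they numbered 974 at 24 h and 667, 92 and 406 for the 3 steps, and the 72 h change of A_30_P01029989 turned from -0.2 to 0.09 (adjusted p = 0.712). Without the dye term 6 h gave 497 and the step from 24 to 48 h 245. That step gave 239 without the detection filter and 259 with the slide as a random block. The fit of carrier and 6 h alone gave 300 at 6 h, and slide 1 alone, added after seeing the data, gave 7. A change of at least 2-fold left 7, 41, 36 and 74 members at 6, 24, 48 and 72 h and 20, 6 and 1 for the steps. The causes were not tested. Leaving out 1 sample gave 602 to 872 at 6 h, 1333 to 1936 at 24 h, 1222 to 1743 at 48 h, 1901 to 2550 at 72 h, and 865 to 1252, 244 to 464 and 653 to 1032 for the steps. Deviations from group means correlated at -0.626 to 0.189 over 40 pairs across groups with the same number and dye. Over 80 pairs with the same number in any dye they correlated at -0.626 to 0.78 (median 0.00587), and over 80 with different numbers at -0.508 to 0.519 (median -0.0124). Deviations within a group sum to 0 and some same-number pairs share an array, so pairing by replicate number cannot be judged from these values. Samples on 1 array correlated at 0.211 to 0.78. With the replicate block (number and dye) the counts were 838, 1631, 1733 and 2205 at the 4 times and 1113, 382 and 959 for the steps. The authors' matrix gave 857, 1750, 1759 and 2327, and the other planned settings stayed within 1.5 times. Of 86 results for named members, 84 were called, and 73 kept call and direction in every planned setting. Signal over background was lowest for dim members. Fewer of them were called, and the cause was not tested.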
